A study of Mus musculus with 47 samples.

Results

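The genes described here encode the proteins of the mitochondrial ribosome. They were listed by name, as every gene symbol that starts with Mrpl or Mrps followed by a number. There were 77 such genes among the 22800 in the count table. By their known place in the ribosome, 50 encode proteins of the large subunit and 26 proteins of the small subunit. Mrps36 was put in neither group, since its protein is better known as a component of the alpha-ketoglutarate dehydrogenase complex. All 77 were found as protein-coding genes in the annotation, on 17 chromosomes, with 10 on chromosome 11, 8 on chromosome 17 and 0 on X or Y.

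Mitochondria carry their own genome, and the few proteins it encodes, all subunits of the respiratory chain and of ATP synthase, are made on a ribosome of their own. Its ribosomal RNAs come from the mitochondrial genome, whereas every one of its proteins is encoded in the nucleus, made in the cytosol and imported. Many of these proteins have a counterpart in the bacterial ribosome, and others were gained by mitochondria later. In neurons the respiratory chain provides most of the energy for ion pumping and synaptic transmission.

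The study set NPY-positive GABAergic interneurons of the superficial auditory cortex (AC) beside those of the distal dendritic layers of hippocampal area CA3, and asked how far they differ in gene expression. NPY-positive cells were recognized by the green fluorescence of the NPY-hrGFP strain (also called NPY-EGFP in the description of the series), in which the reporter is driven by the gene for neuropeptide Y, and all groups came from mice of this strain aged 3 to 8 weeks. The cytosol of 1 neuron was drawn into the patch pipette for each library, so every sample is 1 cell, and only RNA that the pipette reached was measured. The comparison used 10 AC cells and 13 CA3 cells, with 3 CA1 cells given beside them. No label says which mouse a cell came from. The cells of a region were therefore taken as 1 sample, no test between regions was made, and each SD over cells describes the spread of cells only. Region and slicing plane (coronal for AC, horizontal for CA3) cannot be told apart.

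Depth was similar in the 2 main groups, with 1715012 to 6265431 reads on genes per AC cell and 2229519 to 7949918 per CA3 cell, and lower in CA1, with 601781 to 3202430. The GABAergic markers Gad1, Gad2 and Npy were read in every AC and CA3 cell, and Slc32a1, which encodes the vesicular GABA transporter, in 5 of 10 AC cells and 12 of 13 CA3 cells. RNA of other cell types was present in some libraries of both regions. Summed over 7 microglia markers, the lowest, median and highest cell had 0, 283 and 4365 CPM (reads per 1000000 reads on all genes) in AC and 0, 121 and 2161 CPM in CA3, with 1 marker at 0 throughout each region. For 7 astrocyte markers these values were 0.247, 68.8 and 1210 CPM in AC, with 2 markers at 0, and 0, 1.87 and 660 CPM in CA3, with 5 markers at 0. For 7 oligodendrocyte markers they were 0, 0.229 and 367 CPM in AC, with 4 markers at 0, and 0, 43.3 and 1043 CPM in CA3, with 2 markers at 0. For 6 pyramidal cell markers they were 0, 0.114 and 137 CPM in AC, with 2 markers at 0, and 0, 0 and 204 CPM in CA3, with 3 markers at 0. The part of these cells in the differences below was measured only by leaving out the 7 cells (4 of AC, 3 of CA3) that had more than 1000 CPM on the glial lists together.

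Promoters of the mitoribosomal protein genes were described first, since the members are spread over the genome. RefSeq promoter windows (assembly GRCm38.p6, 250 bases before to 50 bases after the start) were given for 68 of the 77 members, with 74 windows in all. They were searched on both strands for the letters CCGGAAG (bound by ETS factors such as GABPA), GCGCATGCG (bound by NRF1) and AAGATGGCG (bound by YY1), 3 elements known from the promoters of many nuclear genes for mitochondrial proteins. The ETS letters were found in 33.8% of the members' windows, in 18.3% of the windows of all genes that passed the filter on low counts described below, and in 8.86% of all 32851 windows. The NRF1 letters were found in 9.46%, 3.93% and 1.75%, and the YY1 letters in 10.8%, 3.60% and 1.40%. At least 1 of the 3 sets of letters occurred in 47.3%, 24.0% and 11.4% of these windows. Only exact matches to these letters were counted, so other forms of the elements may be present in windows without a match. The members' windows had a median GC content of 58.5% and a median of 21.5 CpG sites, against 61.7% and 22 for genes that passed the filter.

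Windows of 4 members are shown, 2 that hold the ETS letters and 2 that hold none of the 3 exact sets of letters searched. The first pair belongs to genes with higher levels in CA3. The second pair contains the gene with the highest level in AC relative to CA3 (Mrpl45) and the gene with most reads per kilobase (Mrpl41). Each window covers the 120 bases before the RefSeq start, 5′ to 3′ on the strand of the gene, in GRCm38 coordinates. It overlaps no annotated exon and has the ETS letters, where present (on either strand), in capitals.
Mrpl52, chr14:54426789-54426908, plus strand: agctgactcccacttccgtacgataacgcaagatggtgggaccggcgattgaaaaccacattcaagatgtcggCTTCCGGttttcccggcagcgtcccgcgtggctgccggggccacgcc
Mrpl34, chr8:71464806-71464925, plus strand: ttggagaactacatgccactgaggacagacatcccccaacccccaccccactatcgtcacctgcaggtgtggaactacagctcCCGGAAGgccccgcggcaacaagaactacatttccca
Mrpl45, chr11:97315596-97315715, plus strand: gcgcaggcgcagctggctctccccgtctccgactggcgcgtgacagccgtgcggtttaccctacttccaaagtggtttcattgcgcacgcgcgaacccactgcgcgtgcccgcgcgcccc
Mrpl41, chr2:24975099-24975218, minus strand: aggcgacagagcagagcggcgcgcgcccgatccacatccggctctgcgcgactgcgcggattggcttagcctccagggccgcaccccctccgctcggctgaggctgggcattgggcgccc

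Members also lay close to a neighbour transcribed the other way more often than other genes: 18 of 77 (23.4%) had a protein-coding gene on the opposite strand whose start lay 0 to 1000 bases upstream of their own start, against 566 of 5618 other protein-coding genes that passed the filter (10.1%). Among these pairs are Mrps12 with Sars2, which encodes the mitochondrial seryl-tRNA synthetase, and Mrps27 with Ptcd2, which encodes an RNA-binding protein of mitochondria. At least 1 of the 3 sets of letters was found in 25 of 50 windows of members with a level higher in CA3 by the fold used below. It was found in 5 of 12 windows (41.7%) of the other members that passed the filter, a gap of a single window in the smaller group. The ETS letters were in 18 of the 50 and 3 of the 12, the NRF1 letters in 6 and 0, and the YY1 letters in 4 and 2 (16.7%).

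Summed over all 77 members, the mitoribosomal protein genes took more reads in CA3 cells than in AC cells. In AC they took 141554 reads, or 4157 CPM (95% interval 4135 to 4179), and in CA3 330907 reads, or 6773 CPM (6750 to 6796), a ratio of 1.63. These are exact Poisson intervals, as are all intervals of CPM given here, and they cover the counting error of reads only, not the spread between cells or mice. The lowest, median and highest AC cell had 2270, 4204 and 5321 CPM (mean 4048 ± 993, SD, n = 10 cells). The corresponding CA3 cells had 4365, 6502 and 11987 CPM (mean 7152 ± 2179, SD, n = 13 cells). The groups overlapped at their edges: 11 of 13 CA3 cells lay above the highest AC cell (N42), and 7 of 10 AC cells lay below the lowest CA3 cell (N37). This holds for the 13 CA3 cells used, which are fewer than the study kept. The lowest, median and highest of the 8 other labelled CA3 cells had 2089, 4070 and 5835 CPM, with a median close to that of the AC cells used, and those of the 9 other labelled AC cells had 112, 292 and 2990 CPM. These other cells had a median of 267468 reads on genes and 3341 genes read in CA3, and of 595759 reads and 1575 genes in AC. N42 was also the AC cell with the most microglia marker reads, and N27, the highest CA3 cell, had the most of them in CA3. Without the 7 cells rich in glial markers the log2 ratio of summed CPM, AC over CA3, was -0.73, against -0.70 with them.

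The 3 CA1 cells had 3023, 3355 and 4361 CPM on the members, each within the range of the AC cells. Each was below the lowest CA3 cell used, but the highest of them (N6, 4361 CPM) was nearly level with it (N37, 4365 CPM). All 3 also lay within the range of the 8 other labelled CA3 cells (2089 to 5835 CPM), and depth was lower in CA1.

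Each cell showed only a part of the set. The number of members with at least 1 read was 20, 34.5 and 58 in the lowest, median and highest AC cell (mean 36.5 ± 11.4, SD, n = 10) and 43, 53 and 75 in CA3 (mean 53.3 ± 9.49, SD, n = 13), and it was 33, 36 and 54 in the CA1 cells. With every cell thinned to 601000 reads the means were 34.7 and 52.2, and with at least 10 reads required they were 33.4 and 51.6. Thinning made the number of reads equal but not the number of genes read, which had means of 4343 in AC and 5370 in CA3 after it. Without thinning, more genes in total were read in CA3 cells as well, 5860 ± 1240 against 4758 ± 1058 in AC (SD). Of the genes that passed the filter on low counts, an average AC cell read 60.3% and an average CA3 cell 72.7%. Of the members that passed it, an average AC cell read 52.8% and an average CA3 cell 74.3%, so that members were below the average gene in AC and slightly above it in CA3.

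**Figure D1:**
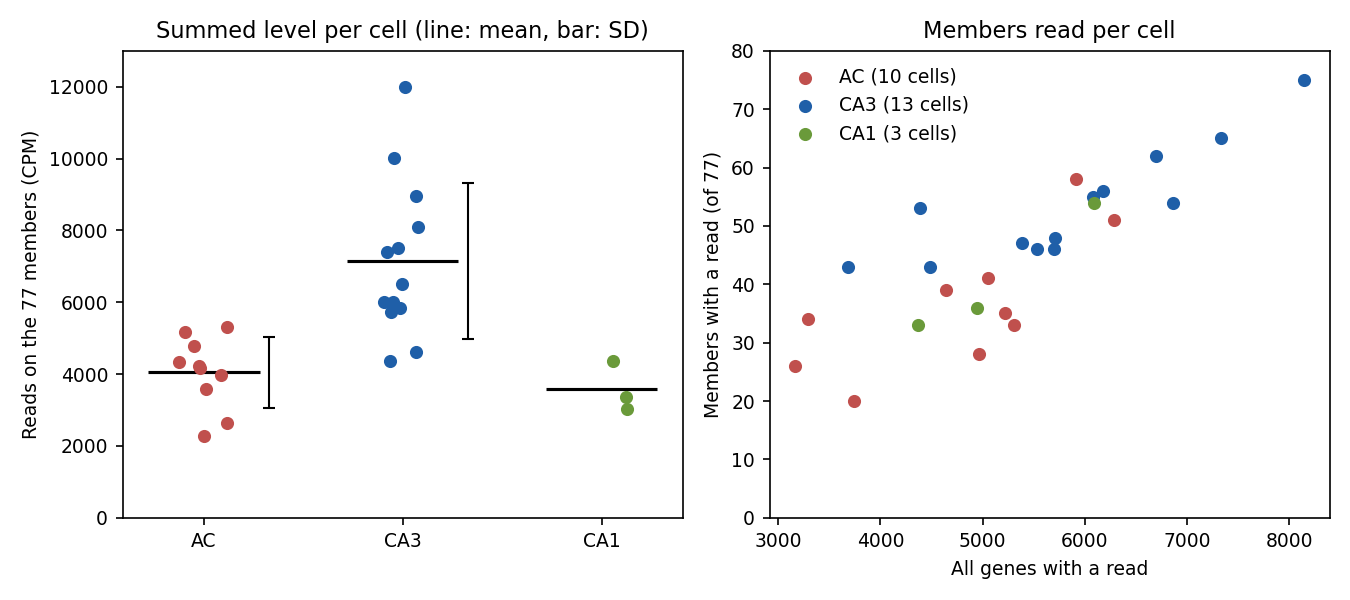
Left, reads on the 77 members in CPM for each AC, CA3 and CA1 cell, 1 point per cell, with the mean (line) and, for AC and CA3, the SD (bar). Right, the number of members with a read against the number of all genes with a read in the same cells. AC cells lie between 2270 and 5321 CPM and CA3 cells between 4365 and 11987 CPM, and cells with more genes read also have more members read.

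Within a region, cells that read more genes read more of the members, with Pearson's r of 0.744 and Spearman's rho of 0.697 across the 10 AC cells and 0.854 and 0.862 across the 13 CA3 cells. Both counts come from the same library and share its depth and quality. The summed CPM of members followed that of the cytosolic ribosomal proteins in CA3 (r = 0.929, rho = 0.885, n = 13 cells), whereas in AC the values were 0.146 and 0.055 (n = 10 cells). With the genes of the mitochondrial genome they were 0.541 and 0.522 in CA3 and -0.204 and -0.006 in AC. All of these are shares of 1 library total and are given as descriptions only.

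**Figure D2:**
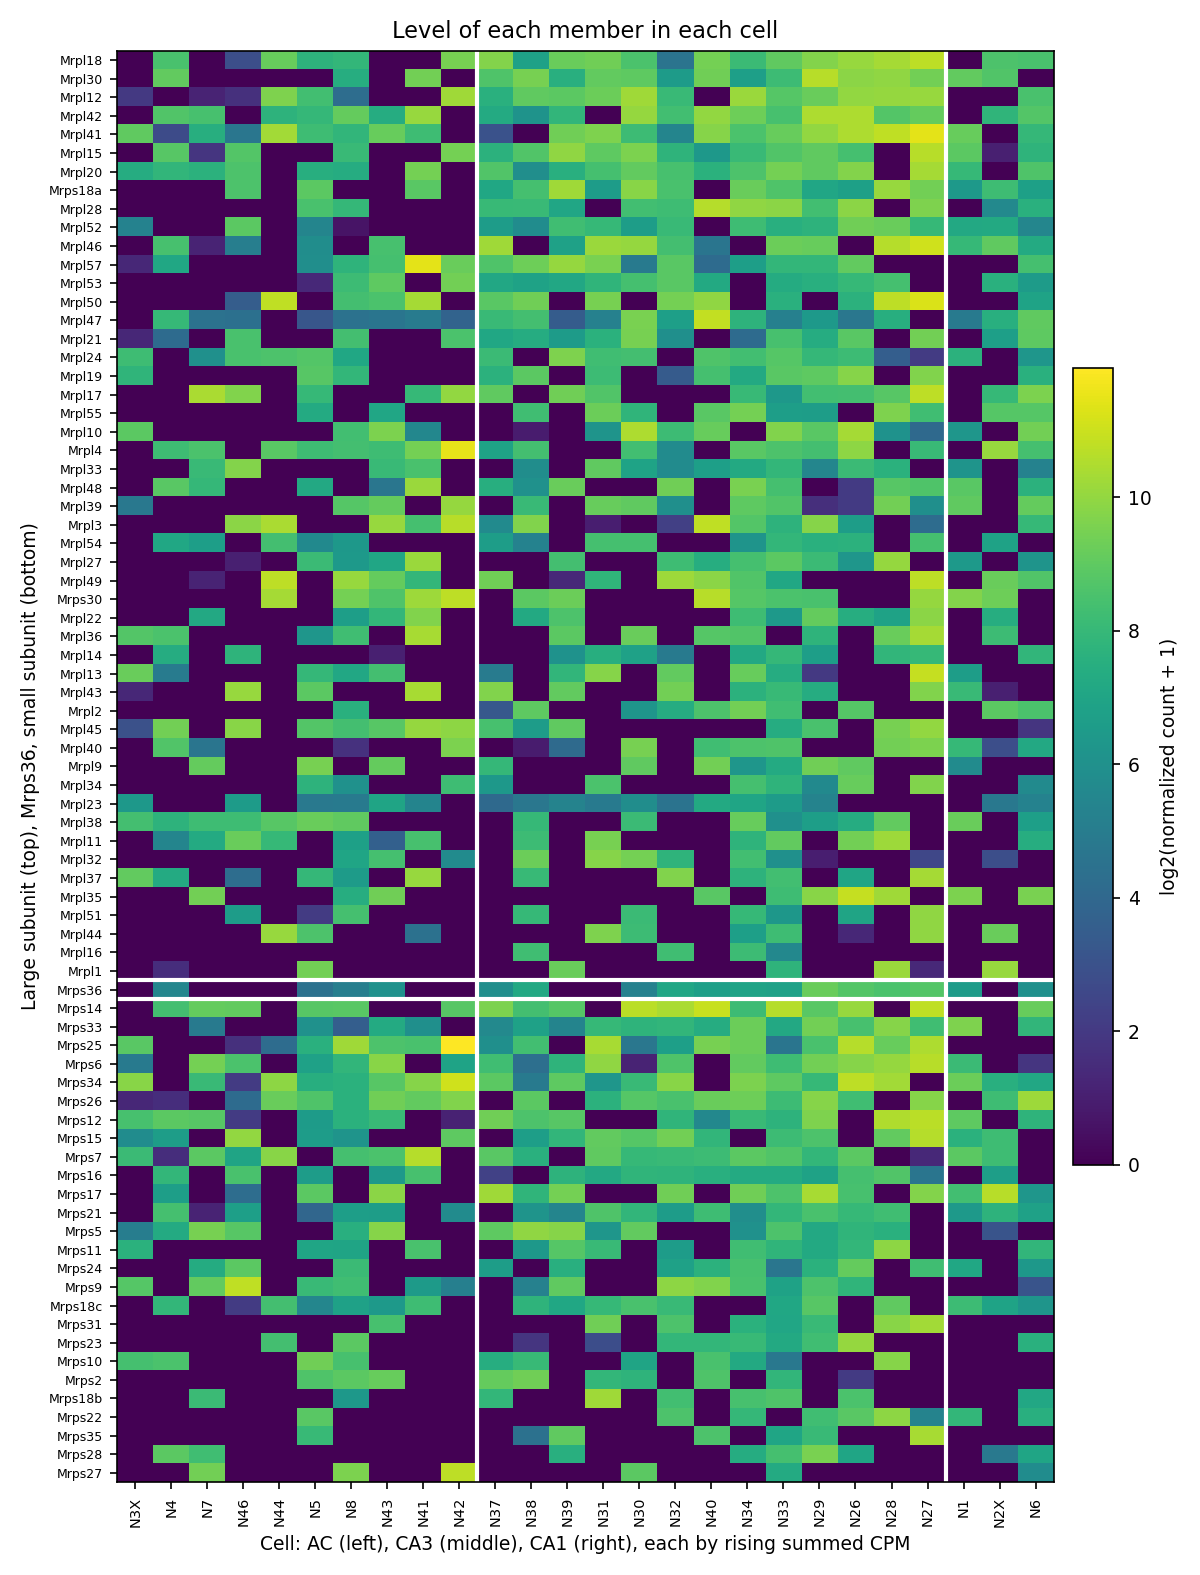
Level of each of the 77 members (vertical axis, large subunit above, Mrps36 between the white lines, small subunit below) in each cell (horizontal axis, AC, CA3 and CA1 from left to right, ordered by summed CPM), as log2(normalized count + 1). Dark cells hold no read, and more of the AC part is dark, with a mean of 36.5 members read per AC cell and 53.3 per CA3 cell.

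Hardly any member was read everywhere. None of the 77 was read in all 23 AC and CA3 cells, 0 were read in all AC cells, and 3 were read in all CA3 cells: Mrpl18, Mrpl30 and Mrps33. In all, 66 members (85.7%) were read in a larger share of CA3 cells and 11 in a larger share of AC cells, where 65.2% of all 13624 genes with a read were read in a larger share of CA3 cells. Summed CPM was higher in CA3 for 63 members (81.8%) and in AC for 14, where it was higher in CA3 for 54.0% of those genes. Mrpl16, a large subunit protein with a bacterial counterpart, had 0 reads in AC, where 3 reads would be 0.0881 CPM. It had 1201 reads in 4 CA3 cells (24.6 CPM), at least 279-fold above that floor, which describes the summed reads and sets no bound for cells. It was at 0 in 9 of the 13 CA3 cells too and is one of 8 members at 0 in CA1.

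Levels per gene were taken as log2(normalized count + 1), with each count divided by a size factor of its cell, and the mean over the cells of a region was compared as AC minus CA3. Genes were kept if 10 or more of the 23 cells held a read, which left 5964 genes and 65 of the 77 members. A gene is spoken of as called when the mean levels differed by at least 1 on this scale. This is a rule of size and no test. Of the 65 kept members 55 (84.6%) were read in a larger share of CA3 cells, where 70.8% of all kept genes were, and 52 had a higher summed CPM in CA3, where 53.6% of all kept genes did.

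By this measure 49 of the 65 members were called higher in CA3 (75.4%), where 48.1% of all kept genes were, and 3 were called higher in AC (4.62%), where 15.4% of all kept genes were. The median difference of members was -2.02, with quartiles of -2.94 and -1.11, and extremes of -6.21 (Mrpl30) and 2.23 (Mrpl45). The median of all kept genes was itself -0.91, so most genes had a lower mean level in AC. Relative to that median, 34 members were called higher in CA3 (52.3%, against 29.6% of all kept genes) and 7 higher in AC (10.8%, against 29.3%), with a median relative difference of -1.11. No member separated the regions cleanly: 0 of 65 members, and 0.0671% of all kept genes (4 genes), had levels that did not overlap between AC and CA3 cells. The difference in means was larger than the SD over cells of both regions for 9 of 65 members (13.8%), all higher in CA3. In that direction it was so for 5.18% of all kept genes. The 9 were Mrpl12, Mrpl18, Mrpl28, Mrpl30, Mrpl52, Mrpl55, Mrps18a, Mrps33 and Mrps36. The filter favoured this direction: Mrpl30, for example, passed it on CA3 cells alone (13 CA3 and 3 AC cells with a read).

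Much of the difference in mean level lay in how many cells had a read. Taken only over cells with a read, for the 62 members read in at least 3 cells of each region, the median difference was -0.42 against 0.05 for all 5728 such genes, with 41 members below 0 and 21 above. The log2 ratio of summed CPM, in which a cell without a read weighs less, had a median of -0.75 over members and called 26 members higher in CA3 and 1 higher in AC (1.54%). Of all kept genes this ratio called 23.1% higher in CA3 and 19.3% higher in AC, with a median of -0.10. Both medians of the members are smaller in size than -2.02 and keep its direction. Without the 7 cells rich in glial markers the median was -1.84, with 45 members called higher in CA3 (69.2%) and 5 higher in AC (7.69%). Of all kept genes 47.1% and 19.9% were then called, with a median of -0.84. With all labelled cells of both regions the median was -2.39, with 57 members called higher in CA3 (87.7%) and 1 higher in AC. All kept genes then had 55.6% and 7.73% and a median of -1.22. The cells added there held far fewer genes in AC (median 1575, with 4 members read) than in CA3 (median 3341, with 31.5 members read).

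**Figure D3:**
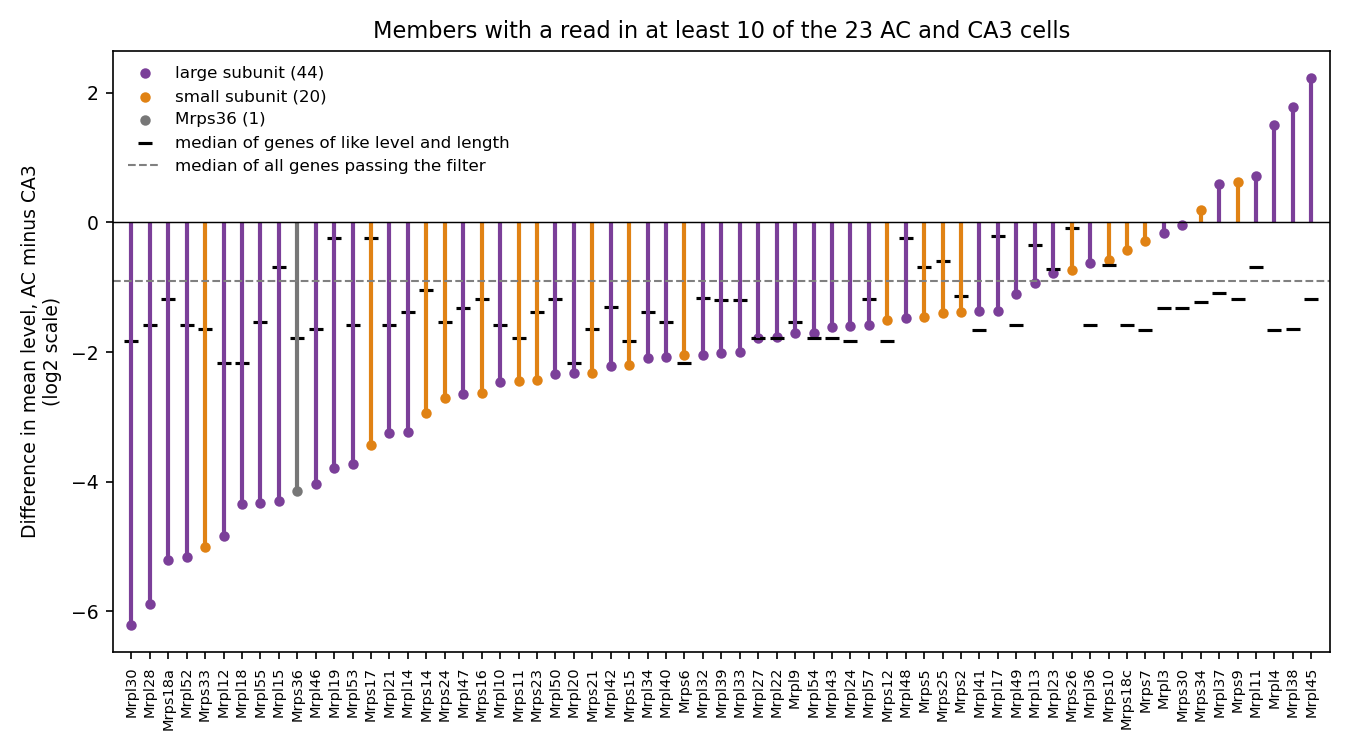
Difference in mean level, AC minus CA3 on the log2 scale, for each of the 65 members that passed the filter, ordered by size and coloured by subunit. Black dashes give the median of the genes of like level and length, and the dashed line gives the median of all kept genes (-0.91). Members from Mrpl30 (-6.21) to Mrpl45 (2.23) are shown, and most lie below the dashed line.

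Mitoribosomal protein genes are short, and short genes as a class had lower levels in AC. The longest transcript of the members ran from 488 to 7300 bases, with a median of 1757 for the 65 kept members against 3434.5 for all kept genes. In 5 classes of length with equal numbers of genes, from short to long, the median difference of the other genes was -1.46, -1.14, -0.90, -0.60 and -0.29. That of the members was -2.33 (34 members), -1.38 (13), -1.41 (8), -1.47 (7) and -1.36 (3). In each class the members lay below the other genes, by the least in the class after the shortest. Each member was then set beside all kept genes in the same of 10 classes of mean level and the same class of length, 71 to 150 genes per member. The median of these medians was -1.53. Taken member by member, the difference of a member minus the median of its own like genes had a median of -0.69, with 44 members below their like genes (24 of them by at least 1) and 21 above (11 of them by at least 1). The members' median was thus -2.02 as measured, -1.11 relative to all kept genes and -0.69 relative to genes of like level and length.

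**Figure D4:**
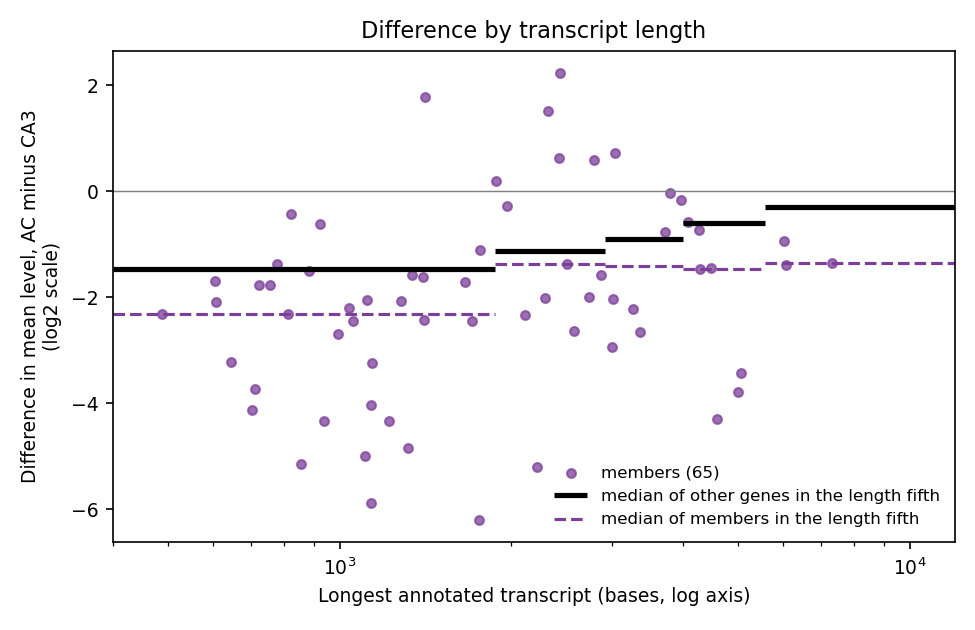
Difference in mean level (AC minus CA3, log2 scale) of the 65 kept members against the length of the longest annotated transcript in bases, on a log axis. Solid bars are medians of other kept genes in each of 5 classes of length, from -1.46 in the shortest to -0.29 in the longest, and dashed bars are medians of the members in the same class, from -2.33 to -1.36.

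Both subunits took part. The 50 large subunit genes summed to 2688 CPM in AC and 4502 CPM in CA3, a ratio of 1.675, and the 26 small subunit genes to 1465 and 2224 CPM, a ratio of 1.52. Of all kept genes 48.1% were called higher in CA3 and 15.4% higher in AC, and relative to their median 29.6% and 29.3%, and the counts of each group of genes from here on are to be read against these shares. Of 44 kept large subunit members 34 (77.3%) were called higher in CA3 and 3 (6.82%) higher in AC, or 23 and 5 relative to the median of all kept genes, with a median difference of -2.01. Of 20 kept small subunit members 14 were called higher in CA3 and 0 higher in AC, or 10 and 2 in relative terms, with a median of -1.78. The large subunit took 63.7% ± 9.91 of member reads in AC cells and 66.5% ± 5.35 in CA3 cells (SD, n = 10 and 13), so the balance between the subunits differed by less than its spread over cells. Members with a bacterial counterpart (41 kept, median -2.05, 31 called higher in CA3, or 75.6%, and 1 in AC) and members particular to mitochondria (23 kept, median -1.62, 17 called higher in CA3, or 73.9%, and 2 in AC) both had medians below that of all genes.

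The stalk of the large subunit recruits translation factors to the ribosome. Mrpl12 encodes the stalk protein that corresponds to bacterial L7/L12. The lowest, median and highest cell had 0, 0.801 and 263 CPM of Mrpl12 in AC and 0, 167 and 359 CPM in CA3. It was read in 7 of 10 AC cells, in most of them at a few CPM or less, and in 12 of 13 CA3 cells, so that the groups overlapped through the high AC cells and 1 CA3 cell at 0. The summed level was 57.6 CPM (55.1 to 60.3) in AC, or 31.5 CPM without N42, and 184 CPM (180.3 to 188) in CA3, and the difference in mean level was -4.84, larger than both SDs. Mrpl10, whose protein anchors the stalk to the ribosome, was at 0, 0 and 239 CPM in AC, where 4 cells had a read, and at 0, 20.7 and 400 CPM in CA3, where 10 did, with a difference in mean level of -2.46. Mrpl11, at the base of the stalk, went the other way in the number of cells: 7 of 10 AC cells had a read (0, 21.9 and 172 CPM) and 6 of 13 CA3 cells (0, 0 and 363 CPM). Its difference in mean level was 0.72, below the size of a call (0.24 without N46, 1.26 without N3X and -0.11 without the 7 cells rich in glial markers), while its summed CPM was higher in CA3 (69.4 against 43.6 CPM). Of the 5 stalk members 4 were called higher in CA3, where 48.1% of all kept genes were, and 0 higher in AC, or 3 and 1 relative to the median of all kept genes.

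The central protuberance is the part of the large subunit that faces the small subunit above the tRNA sites, and in mammalian mitochondria several of its proteins have no bacterial counterpart. Of its 8 members 6 were called higher in CA3 and 1 higher in AC, where all kept genes had 48.1% and 15.4%, or 4 and 1 relative to the median of all kept genes. Mrpl18, the counterpart of a protein that holds 5S rRNA in bacteria, was read in 6 AC cells (0, 34.4 and 157 CPM) and in all 13 CA3 cells (7.67, 187 and 432 CPM). AC and CA3 cells overlapped, yet the median CA3 cell was above the highest AC cell, and the difference in mean level was -4.34. Mrpl52 was read in 4 AC cells (0, 0 and 141 CPM) and 12 CA3 cells (0, 66.0 and 188 CPM), with a difference of -5.16, and 85.3% of its AC reads came from N46 alone. Its promoter is one of the windows shown above with ETS letters.

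Mrpl46 was read in 5 AC cells (0, 0.222 and 107 CPM) and 10 CA3 cells (0, 178 and 539 CPM), with a difference of -4.04. Its exons overlap those of another member, Mrps11, on the opposite strand, and the library kit does not mark strand, so reads in the shared stretch cannot be told apart. Mrps30, which in spite of its name lies in the large subunit, was read in 5 AC cells (0, 61.2 and 381 CPM) and 7 CA3 cells (0, 113 and 443 CPM). Its difference was -0.04, and the regions could not be told apart by it. Mrpl38 was the member of the protuberance with the opposite order, read in 7 AC cells (0, 95.6 and 195 CPM) and 7 CA3 cells (0, 21.1 and 184 CPM). The difference was 1.77, smaller than either SD (4.14 and 4.12). It was 2.74 without the 7 cells rich in glial markers and 0.92 by the log2 ratio of summed CPM.

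Around the peptide exit, where the new chain leaves the ribosome towards the inner membrane, 3 of 5 kept members were called higher in CA3, where 48.1% of all kept genes were, and 1 higher in AC, where 15.4% were. Relative to the median of all kept genes it was 1 in each direction. Mrpl45, which ties the ribosome to the inner membrane, had the highest AC level relative to CA3 of all 65 members. It was read in 8 of 10 AC cells (0, 139 and 260 CPM) and in 7 of 13 CA3 cells (0, 29.4 and 257 CPM), and the highest cells of both regions were alike. Its summed level was 126 CPM (122 to 130) over the AC cells and 74.2 CPM (71.8 to 76.6) over the CA3 cells, and the difference in mean level of 2.23 was smaller than either SD (4.13 and 4.49). In CA1 a single read was found. With all labelled cells in place of the chosen ones the difference of Mrpl45 was -0.29. Mrpl44, also at the exit, did not pass the filter, with reads in 3 AC cells (0, 0 and 305 CPM) and 6 CA3 cells (0, 0 and 251 CPM), and its exons overlap those of Wdfy1.

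The lowest differences of all belonged to other large subunit members. Mrpl30 was read in 3 of 10 AC cells. Every one of the 13 CA3 cells had reads on it. Its lowest, median and highest levels were 0, 0 and 166 CPM in AC and 30.3, 147 and 512 CPM in CA3. Most AC cells were thus below every CA3 cell, and the 3 with reads lay inside the CA3 range. The summed level was 36.7 CPM (34.7 to 38.8) in AC and 154 CPM (150.3 to 157) in CA3, 4.19-fold higher (7.66-fold without N41, which held 52.3% of its AC reads), and the difference in mean level was -6.21 (-6.96 to -5.92 when each cell was left out in turn).

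Mrpl28, whose protein is also known as a melanoma antigen in human, was read in 2 AC cells (0, 0 and 122 CPM) and 11 CA3 cells (0, 99.97 and 428 CPM), with a difference of -5.89. Mrps18a, a large subunit protein named after a small subunit relative, was read in 3 AC cells (0, 0 and 162 CPM) and 12 CA3 cells (0, 122 and 387 CPM), with a difference of -5.20. In both genes the median AC cell was at 0 and the ranges overlapped. The 3 CA1 cells had 24.9, 34.9 and 87.7 CPM of Mrps18a, between the medians of AC and CA3.

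Mrpl41 had the most reads per kilobase of transcript, 227 CPM per kb averaged over the 23 cells (SD 239). It was followed by Mrpl20 with 122 (SD 104), Mrps12 with 119 (SD 143), Mrpl18 with 114 (SD 105), Mrps6 with 109 (SD 110.0) and Mrpl46 with 106 (SD 146). None of these neighbours differ beyond their spread. The order pools both regions and was not the same in each: Mrpl41 was first in both, with 128 CPM per kb in AC (SD 137.5) and 303 in CA3 (SD 276), whereas Mrpl46 was second in CA3 with 170.3 (SD 166.5) and of rank 41 in AC with 21.4 (SD 38.9). Mrps34 with 83.9 (SD 79.97) and Mrpl36 with 71.8 (SD 105) followed Mrpl41 in AC. At the other end, Mrpl23 had 3.53 CPM per kb (SD 3.79), also over all 23 cells.

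Of these 6, Mrpl18 and Mrpl46 are described above. Mrpl41 was read in 9 AC cells (0, 65.7 and 343 CPM) and 12 CA3 cells (0, 209 and 697 CPM), with a difference in mean level of -1.37, which was -0.61 without N42, -0.92 without N4 and turned to 1.26 without the 7 cells rich in glial markers. Mrpl20 was read in 7 AC cells (0, 56.7 and 153 CPM) and 12 CA3 cells (0, 124 and 315 CPM), with a difference of -2.33. The ranges of both overlapped widely.

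Mrpl4, Mrpl37 and Mrpl11 complete the large subunit genes at the AC end of the order. Mrpl4 was read in 8 AC cells (0, 95.7 and 620 CPM) and 9 CA3 cells (0, 67.2 and 280.3 CPM), with a difference of 1.51, and 47.7% of its AC reads came from N42. The highest CA1 cell had 324 CPM of it. The difference of Mrpl4 was 1.03 without N42, 2.30 without N3X, 0.53 without the 7 cells rich in glial markers and -1.51 with all labelled cells. Mrpl37 was read in 6 AC and 6 CA3 cells (highest 240.5 and 323 CPM) and in 0 of 3 CA1 cells, with a difference of 0.59. That difference was -0.03 without N41, 1.12 without N27, -0.15 without the 7 cells rich in glial markers and -0.29 with all labelled cells.

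In the small subunit Mrps33 had the lowest difference. It was read in 5 AC cells (0, 1.52 and 48.7 CPM) and in all 13 CA3 cells (13.1, 70.4 and 267 CPM). The highest AC cell was thus below the median CA3 cell. Summed levels were 8.63 CPM (7.67 to 9.68) and 83.0 CPM (80.5 to 85.6), 9.62-fold higher in CA3 (18.1-fold without N43, which held 51.7% of its AC reads), and the difference in mean level was -5.01, larger than both SDs.

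Mrps12, the counterpart of the bacterial decoding-centre protein in which streptomycin resistance arises, was read in 8 AC cells (0, 43.3 and 161 CPM) and 10 CA3 cells (0, 87.6 and 451 CPM). Its difference of -1.50 was called, and it was -0.93 without N41 or N44 and 0.92 without the 7 cells rich in glial markers. Mrps6, the counterpart of an rRNA-binding protein of the bacterial small subunit, was read in 7 AC cells (0, 31.4 and 275 CPM) and 12 CA3 cells (0, 132 and 398 CPM), with a difference of -2.05, which was -0.41 without the 7 cells rich in glial markers and no longer called. It shares exons on the same strand with Slc5a3, a transporter of myo-inositol, so counts of the pair may be split between them.

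Mrps7, the counterpart of a bacterial protein that organizes the head of the small subunit, was read in 8 AC cells (0, 94.1 and 344 CPM) and 11 CA3 cells (0, 79.2 and 153 CPM). Its summed CPM was higher in AC (123 against 82.4 CPM), while the difference in mean level was -0.29. This value was 0.41 without N42, -0.84 without N28, -1.11 without the 7 cells rich in glial markers and -2.79 with all labelled cells. The regions were close in their medians, and exons of Mrps7 overlap those of Gga3 and Mif4gd. Mrps9 was read in 7 AC cells (0, 54.0 and 520 CPM) and 8 CA3 cells (0, 39.1 and 314 CPM), with a difference of 0.62, which was 0.05 without N46, 1.25 without N4 and 0.04 without the 7 cells rich in glial markers.

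Mrps36, the member assigned to no subunit, was read in 4 AC cells (0, 0 and 19.5 CPM) and 11 CA3 cells (0, 38.5 and 187 CPM). The highest AC cell lay below the median CA3 cell, and the difference was -4.14. The annotation also holds 3 pseudogenes named after Mrps36 and 1 each after Mrpl23 and Mrpl48, which are not listed in the count table, so reads that fit such a copy and the gene equally well are uncertain.

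The 12 members that did not pass the filter were Mrpl1, Mrpl2, Mrpl16, Mrpl35, Mrpl44, Mrpl51, Mrps18b, Mrps22, Mrps27, Mrps28, Mrps31 and Mrps35. Of these, Mrps27 alone had more AC cells (3) than CA3 cells (2) with a read, and its summed level was 97.6 CPM (94.3 to 101) in AC and 12.2 CPM (11.2 to 13.2) in CA3, or 63.1 CPM in AC without N42 and 4.54 CPM in CA3 without N30. Its reads came from so few cells that every AC value but 3 and every CA3 value but 2 was 0. Mrpl2, read in 1 AC cell and 8 CA3 cells, had the lowest difference in mean level of the 12 (-3.93), with 9.87 CPM in AC and 61.9 CPM in CA3 over the summed reads. Mrps25 and Mrps34 were the kept small subunit members with the highest summed CPM in AC, 203 CPM (198 to 207) and 172 CPM (168 to 176), against 131 CPM and 151 CPM in CA3. In AC they were read in 8 and 9 cells and were highest in N42, and their differences in mean level were -1.39 and 0.19, of which the first was called. With each cell left out in turn Mrps25 lay between -2.03 (without N42) and -0.71 (without N4), no longer called at the upper end, and Mrps34 between -0.42 (without N27) and 1.02 (without N4). The higher summed CPM of AC rested on N42, without which it was 120 CPM for Mrps25 and 134 CPM for Mrps34, both below CA3. Mrps25 was at 0 in the 3 CA1 cells.

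Altogether 21 members share exon sequence with another gene of the table. Among those described above are also Mrpl18 (with Tcp1), Mrpl36 (Ndufs6), Mrps25 (Nr2c2), Mrps30 (B430218F22Rik) and Mrps34 (Nme3 and Mapk8ip3). Reads in such shared stretches cannot be told apart. The values below are for the 21 members and for the rest. The 20 kept members with such an overlap had a median difference of -1.74, and the 45 kept members without it had -2.04. The part of shared reads in these differences was not tested.

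Related gene lists were set beside the members. Of 6 mitoribosome proteins with other names, 4 were called higher in CA3 and 0 higher in AC (48.1% and 15.4% of all kept genes), or 4 and 2 relative to the median of all kept genes. Chchd1, a small subunit protein, was read in 4 AC cells (highest 94.4 CPM) and 13 CA3 cells (highest 262 CPM), with a difference of -5.24. Aurkaip1, another small subunit protein, was read in 6 and 13 cells, with a difference of -4.17. For Ptcd3, also of the small subunit, and Ict1, a peptidyl-tRNA hydrolase built into the large subunit, the differences were 0.29 and 0.17, below the size of a call.

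Of 24 genes for assembly of the mitoribosome and modification of its rRNA 10 were kept, of which 5 were called higher in CA3, where 48.1% of all kept genes were, and 3 higher in AC, where 15.4% were (median -1.13), or 2 and 3 in relative terms. Ngrn, needed for the large subunit rRNA, was read in 3 AC and 12 CA3 cells (difference -5.87), and Malsu1, which keeps the subunits of the immature ribosome apart, in 3 and 7 (-1.95). Mettl17, needed for the small subunit, was read in 6 AC and 4 CA3 cells (2.63), and the GTPase gene Mtg1 in 4 and 7 (1.57, and 0.91 without N4). The median of this list was -1.54 without N27, -0.71 without N43 and 0.45 without the 7 cells rich in glial markers.

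Of 15 genes for translation factors and mRNA handling 8 were kept, of which 5 (62.5%) were called higher in CA3, where 48.1% of all kept genes were, and 1 higher in AC, where 15.4% were (median -1.19). Relative to the median of all kept genes 3 were called in each direction. Slirp and Lrpprc, whose proteins stabilize mitochondrial mRNAs together, had differences of -3.37 and -2.95, although summed CPM of Lrpprc was higher in AC (162 against 90.5 CPM, and 64.9 CPM in AC without N41). Guf1, a ribosome-bound GTPase, had a difference of 2.29, and Oxa1l, which inserts new chains into the inner membrane, one of 0.29. The median of this list was 0.04 by the log2 ratio of summed CPM and -2.16 without the 7 cells rich in glial markers.

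Of 22 mitochondrial aminoacyl-tRNA synthetases and related genes 5 were kept, and 2 were called in each direction, where all kept genes had 48.1% in CA3 and 15.4% in AC (median -0.20, from -0.99 without N29 to 0.82 without N41, and 0.45 without the 7 cells rich in glial markers). Lars2, for the leucine enzyme, was read in all 23 cells and summed to 4037 CPM in AC and 1359 CPM in CA3 (difference 1.23; without N46 the AC sum was 2251 CPM and the difference 0.88), and Hars2, for the histidine enzyme, had a difference of 2.44. Kars and Gatc had differences of -2.49 and -1.81.

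The 15 genes of the mitochondrial genome were all kept, with 11 called higher in CA3 (73.3%, where 48.1% of all kept genes were) and 0 higher in AC (median -1.24). Relative to the median of all kept genes, 1 of them was called higher in CA3 (6.67%, where 29.6% were) and 0 higher in AC (median relative difference -0.33). Their differences lay between -2.53 (mt-Nd2) and -0.46 (mt-Co1). Their sum was 10519 CPM in CA3 and 6375 CPM in AC. The cytosolic ribosomal proteins, 84 genes of which 81 were kept, had 59 called higher in CA3 (72.8%) and 0 higher in AC (median -1.59), or 31 (38.3%) and 2 relative to the median of all kept genes. They ran from -4.14 (Rps4l) to 0.53 (Rpsa), and summed to 6160 and 10460 CPM, a ratio of 1.70 beside 1.63 for the members. Lower levels in AC were thus shared with the proteins of the cytosolic ribosome.

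**Figure D5:**
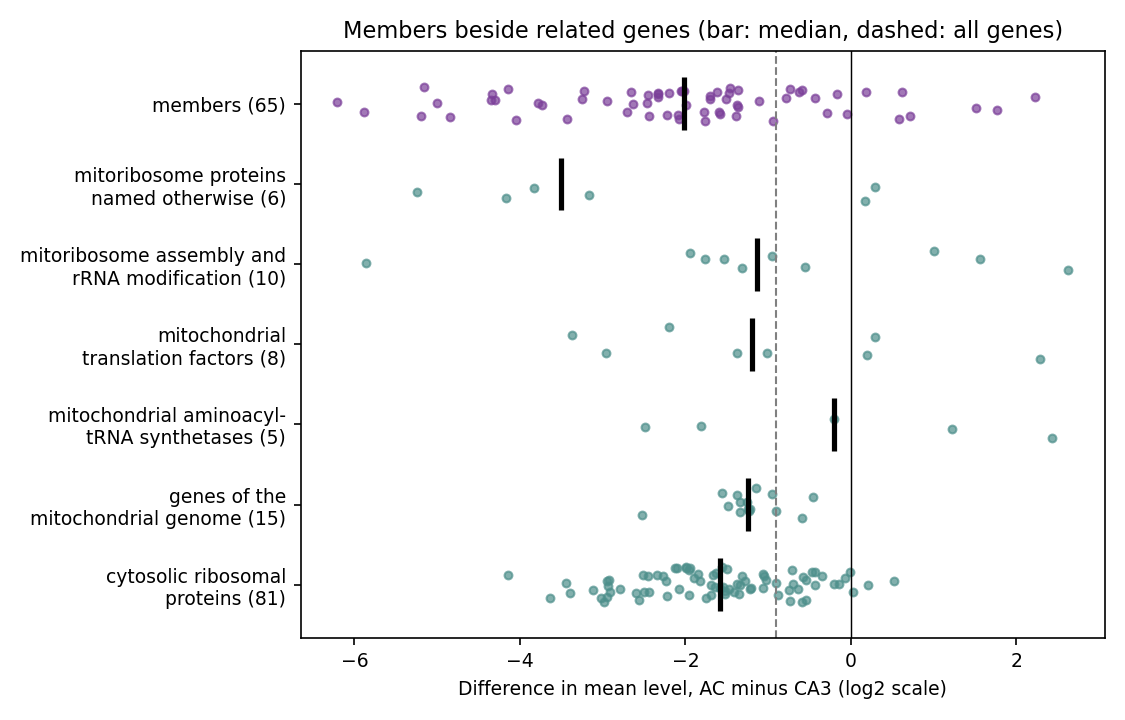
Difference in mean level (AC minus CA3, log2 scale) for each kept gene of the members and of 6 related lists, with the number kept in brackets, the median of each list (black bar) and that of all kept genes (dashed line, -0.91). Medians run from -3.50 for mitoribosome proteins with other names, through -2.02 for the members and -1.59 for the cytosolic ribosomal proteins, to -0.20 for the synthetases.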

How the data were processed

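The libraries are single NPY-positive neurons. Raw counts of reads per gene symbol were deposited by the authors as 1 table, with no normalization. The submitters' processing notes name Trimmomatic, STAR, featureCounts and GRCm38, whereas the methods of the study name HTSeq for the counting and an average over identifiers that share a symbol. Counts of the 10 AC, 13 CA3 and 3 CA1 cells were divided by size factors from calculateSumFactors of scran 1.30.0 in R 4.3.3 (pool sizes 10 and 20), from which log2(normalized count + 1) was taken as the level. CPM used the reads on all genes. These cells were given with the list of members and had been picked out in earlier work on these data by matching values with printed heat maps. All labelled cells (19 of AC, with N4 and N4X taken as 1, and 21 of CA3) were used as an alternative. The members, the related lists and the fold were chosen with earlier results of these data known.

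No model was fitted, since each region counts as 1 sample. Gene coordinates and lengths came from GENCODE vM21 (GRCm38) by symbol. Members were named by rule: the 6 with the largest difference in each direction, the 6 with most reads per kilobase, those of well known role, and 2 per direction of each related list. Mrpl12 and Mrpl45 count under 2 parts of the rule, and so do Mrpl11 and Mrps12. Further members, such as Mrpl2, Mrpl16, Mrpl23, Mrpl36, Mrps25, Mrps27, Mrps34 and Mrps36, were named after their values were seen. Alternatives were TMM factors of edgeR 4.0.16, poscounts factors of DESeq2 1.42.0, library size, scran factors from the 23 cells, pseudocounts of 10 and 0.1, other filters, the log2 ratio of summed CPM, thinning to 601000 reads (seed 1), and each cell left out in turn. Leaving out cells with more than 1000 CPM of glial markers, and averaging over cells with a read, were added after the data were seen. The calculation of differences was tested on simulated data. Tables and figures were made with pandas 2.3.3, numpy 2.4.6, matplotlib 3.10.9 and scipy 1.17.1 under Python 3.11.15.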

Additional observations from a re-analysis of the deposited data

Results flagged for a closer look

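Cells of other groups, which entered no comparison, also carried reads on the mitoribosomal protein genes. The 2 NPY-positive cells of the dentate gyrus had 3292 CPM (N11, 6 members read) and 3453 CPM (N12, 27 members read), and the NPY-negative cell of CA3 (N16) had 2327 CPM with 36 members read. All 3 lie within the range of the AC cells, at 89297 to 291745 reads on genes, far below the depth of the compared cells. The cells have no control of their own, and no difference was tested. Among 27 sets of values over the 10 AC cells, 0 had a cell set apart by Dixon's criterion, which chance alone meets in about 1 set of 20.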

How the results depend on the processing

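The members' median difference stayed below 0 and below that of all genes in all alternatives run, from -2.77 (pseudocount 0.1) to -0.42 (cells with a read alone, where all genes had 0.0491), and between -2.18 and -1.72 with each cell left out. By the log2 ratio of summed CPM the median was -0.75 for members, -0.76 for the large subunit, -0.95 for mitoribosome proteins with other names and 0.0432 for translation factors, and Mrpl45 (0.77), Mrpl38 (0.92), Mrps6 (-0.95) and Mrpl10 (-0.68) were below the size of a call, with 26 members called higher in CA3 and 1 higher in AC, or 22 and 2 relative to all genes (all kept genes: 21.0% and 21.4%). Counts relative to all genes were 22 higher in CA3 (33.8%) and 3 higher in AC with a pseudocount of 10 (all kept genes: 21.8% and 21.2%), 55 of 77 higher in CA3 (71.4%) with no filter (all genes: 3549 of 13624 with a read), and 3 higher in AC with thinned cells (all kept genes: 24.1%). The count higher in AC was 5 with a pseudocount of 0.1 (all kept genes: 17.4%), 5 without the cells rich in glial markers, and 3 to 5 with each cell left out.

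With all labelled cells, 1 member was called higher in AC as measured and 1 relative to all genes, the log2 ratio of summed CPM was -1.14, and medians were -1.89 for the synthetases, -2.56 for the mitochondrial genome and -3.17 for the cytosolic ribosomal proteins. There 5 of the 6 members with the highest differences turned: Mrpl45 to -0.29, Mrpl4 to -1.51, Mrpl11 to -0.82, Mrps9 to -1.13 and Mrpl37 to -0.29. Mrpl38 was at 1.35. The AC cells added there had a median of 4 members read, and the added CA3 cells 31.5. Without the cells rich in glial markers the assembly list turned to 0.45, Mrpl41 to 1.26 and Mrps12 to 0.92. The cause of these changes was not tested. No paired analysis was possible because the columns carry no numbers that pair AC with CA3 cells and no result comes from a test.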
